A study of Mus musculus with 6 samples.

Results

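Olfactory receptor genes code for the odorant receptors of olfactory neurons and lie in large clusters, and 2 of these clusters were examined for CpG methylation. They span 4 Mb of chromosome 2 (chr2:85500001-89500000, mm9) and 2 Mb of chromosome 9 (chr9:37800001-39800000, mm9). The bounds are positions and hold no methylation value, but they were chosen with earlier results of these data known. A CpG site belonged to the set with 5 or more reads in all 3 lines and at most 45, 40 and 80 reads in the DNMT3A2, DNMT3B1 and SETD2 knockout lines. The set held 2056 of the 27743 listed CpG sites of both clusters (7.41%), 1308 of 18530 on chromosome 2 and 748 of 9213 on chromosome 9. Over the other autosomal DNA, 7045479 of 19779938 listed sites (35.6%) met the same rule.

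The study used whole-genome bisulfite sequencing, in which bisulfite turns unmethylated but not methylated cytosine into a base read as T. All 3 groups were mouse embryonic stem cells without the endogenous methyltransferases DNMT1, DNMT3A and DNMT3B. The first expressed DNMT3A2, a short isoform of DNMT3A, the second expressed DNMT3B1, and the third expressed DNMT3B1 and lacked the histone methyltransferase SETD2 as well. Each line had 2 sequencing runs and no separate culture named in the labels, so it counted as 1 library, and no test between lines was possible. The titles name a HiSeq and a MiSeq run for both the DNMT3A2 and the DNMT3B1 line. For the knockout they name single and paired-end sequencing. A difference of the knockout from the other lines cannot be told apart from this difference in named runs. No line without any methyltransferase was analysed here. Not given in the sources used here are the promoter that drove each reintroduced enzyme and the number of clones behind a line.

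A mature olfactory neuron transcribes 1 olfactory receptor allele, and in most other cells the family is silent. SETD2 adds the H3K36me3 mark over transcribed gene bodies, and the PWWP domain of DNMT3B binds that mark. The clusters therefore let the enzymes be compared over long stretches where little transcription is expected. Neither transcription nor the histone mark was measured here, and mm9 gene models were not used, so that silence was not checked and no site was assigned to an exon, an intron or a promoter.

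Olfactory receptor promoters hold few CpGs, and 4 of them are shown to make plain how little substrate the enzymes have there. In RefSeq (GRCm38.p6), the longest run of neighbouring olfactory receptor genes on chromosome 2 held 293 such genes, 222 of them protein-coding, and that on chromosome 9 held 127, of which 95 were protein-coding. The tables gave a promoter for 186 and 79 of the coding genes. Promoter here means the 250 bases before the annotated gene start, and whether transcription begins there was not checked. In the 250 bases before the annotated gene start, the dinucleotide CG, which reads the same on both strands, was absent from 46.2% of the chromosome 2 promoters and 44.3% of those on chromosome 9, with a median of 1 in each. Over all 17492 promoters of coding genes it was absent from 7.34%, with a median of 10. The following were taken from genes in the middle of each run, namely the promoter with the most CGs there and the first with the run's median number, all on the + strand and written 5′ to 3′, with each CG in capitals. Since the builds differ, no methylation value is tied to them.
Olfr1151: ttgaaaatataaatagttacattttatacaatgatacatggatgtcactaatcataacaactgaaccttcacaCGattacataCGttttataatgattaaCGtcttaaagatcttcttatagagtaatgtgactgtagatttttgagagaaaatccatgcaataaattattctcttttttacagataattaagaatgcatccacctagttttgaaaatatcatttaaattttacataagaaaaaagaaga
Olfr1113: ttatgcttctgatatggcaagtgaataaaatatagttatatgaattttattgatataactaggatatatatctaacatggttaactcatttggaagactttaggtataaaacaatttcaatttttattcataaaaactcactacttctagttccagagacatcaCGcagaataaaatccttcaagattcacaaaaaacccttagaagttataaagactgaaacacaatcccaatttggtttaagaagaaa
Olfr922: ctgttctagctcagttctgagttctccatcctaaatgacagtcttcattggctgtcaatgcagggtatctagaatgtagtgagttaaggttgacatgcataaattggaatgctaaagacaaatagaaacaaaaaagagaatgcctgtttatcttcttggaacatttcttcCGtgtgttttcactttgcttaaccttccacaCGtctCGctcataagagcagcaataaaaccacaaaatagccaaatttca
Olfr912: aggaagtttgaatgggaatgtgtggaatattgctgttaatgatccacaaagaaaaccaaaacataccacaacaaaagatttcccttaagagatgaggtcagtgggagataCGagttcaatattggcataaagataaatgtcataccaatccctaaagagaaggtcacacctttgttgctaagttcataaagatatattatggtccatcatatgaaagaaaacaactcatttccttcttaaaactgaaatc

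Coverage was low throughout the clusters. The total of CpG reads was 200364080 in the DNMT3A2, 188661576 in the DNMT3B1 and 200947834 in the knockout line, the last over its listed sites only, so it cannot be compared with the others. The mean coverage of a listed site was 3.99 reads (DNMT3A2) and 3.70 (DNMT3B1) in the chromosome 2 cluster and 4.31 and 3.94 in the chromosome 9 cluster. Autosomal means outside the clusters were 8.57 and 8.15. The knockout values list only sites with at least 10 reads, which were 16.0% and 16.8% of cluster sites and 46.6% of other autosomal sites. CpGs were sparse too, with 4.63 and 4.61 sites per kb in the clusters and 8.73 and 8.18 in the 2 Mb flanks on each side. Within the set, reads at the cluster sites averaged 10.0, 9.69 and 15.3 per site on chromosome 2 and 10.1, 9.64 and 15.3 on chromosome 9 (DNMT3A2, DNMT3B1, knockout). Intervals named exact are Clopper-Pearson 95% intervals and cover counting error only. Intervals of ratios are 95% intervals from the variation between 10 kb tiles of the cluster and cover no variation between cultures. They treat the tiles as independent, so they do not allow for levels shared over longer stretches.

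Both clusters were weakly methylated in all 3 lines, least in the DNMT3B1 line. In the DNMT3A2 line, 564 of 13126 reads were methylated in the chromosome 2 cluster, a level of 4.30% (exact interval 3.96 to 4.66). The DNMT3B1 line had 270 of 12676, or 2.13% (1.89 to 2.40), and the SETD2 knockout 1216 of 20051, or 6.06% (5.74 to 6.40). In the chromosome 9 cluster the levels were 5.41% in the DNMT3A2 line (407 of 7520, 4.91 to 5.95), 2.25% in the DNMT3B1 line (162 of 7214, 1.92 to 2.61) and 5.83% in the knockout (667 of 11440, 5.41 to 6.28). The knockout was therefore the most methylated line over both clusters by level, and on chromosome 9 its interval overlapped that of the DNMT3A2 line. Autosomal sites with 60 or more CpGs per kb, the lowest levels available as a background, stood at 0.210%, 0.153% and 0.463% in the DNMT3A2, DNMT3B1 and knockout lines, well under the cluster levels.

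At equal CpG density, the clusters were less methylated than the autosomes in every line, and the DNMT3A2 line on chromosome 2 had the lowest ratio. Density counted the CpG sites within 500 bp on either side of a site, and autosomal levels were weighted to each cluster's reads in 6 density bins. On chromosome 2 the autosomal levels so weighted were 7.43% (DNMT3A2), 3.11% (DNMT3B1) and 6.81% (knockout). With DNMT3A2 the cluster stood at 0.578 of the autosomal level (0.495 to 0.675), with DNMT3B1 at 0.686 (0.563 to 0.835) and in the knockout at 0.891 (0.796 to 0.996). On chromosome 9 the weighted autosomal levels were 7.01%, 3.01% and 6.68%, and the cluster stood at 0.772 (0.625 to 0.954), 0.745 (0.570 to 0.975) and 0.872 (0.766 to 0.994) of them. With density counted over 2 kb instead, every ratio stayed under 1, but the chromosome 2 knockout interval included 1 (0.918, 0.821 to 1.03). All 3 chromosome 9 intervals then included 1 as well. They were 0.841 (0.682 to 1.04), 0.772 (0.590 to 1.01) and 0.893 (0.785 to 1.02) for DNMT3A2, DNMT3B1 and the knockout. The DNMT3A2 ratio of the chromosome 2 cluster was 0.749 times that of the chromosome 9 cluster (0.576 to 0.973), whereas the intervals for DNMT3B1 (0.920, 0.659 to 1.28) and the knockout (1.02, 0.859 to 1.21) included 1. This comparison of the clusters was not matched on coverage. Its intervals treat the 10 kb tiles as independent, while DNMT3A2 ratios of 500 kb windows ranged from 0.186 to 0.828 within the chromosome 2 cluster.

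These ratios rested on low-coverage DNA, and matching on coverage narrowed the deficit or turned it. Every one of the 2056 set sites lay in a 100 kb stretch with a mean coverage under 6 reads per site, against 6.18% of the autosomal sites of the set. When autosomal levels were also matched on that regional coverage, a comparison added after the data had been seen, the chromosome 2 ratios became 0.938 (0.809 to 1.09) for DNMT3A2, 0.854 (0.700 to 1.04) for DNMT3B1 and 1.02 (0.911 to 1.14) for the knockout. On chromosome 9 they became 1.20 (0.968 to 1.48), 0.904 (0.690 to 1.18) and 0.985 (0.865 to 1.12). All 6 intervals then included 1. Over all of each line's own sites, matched on density and coverage, the chromosome 9 cluster was above the autosomes in the DNMT3A2 line at 1.16 (1.03 to 1.30), and the other 5 intervals again included 1. What sets the regional coverage was not measured.

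**Figure D1:**
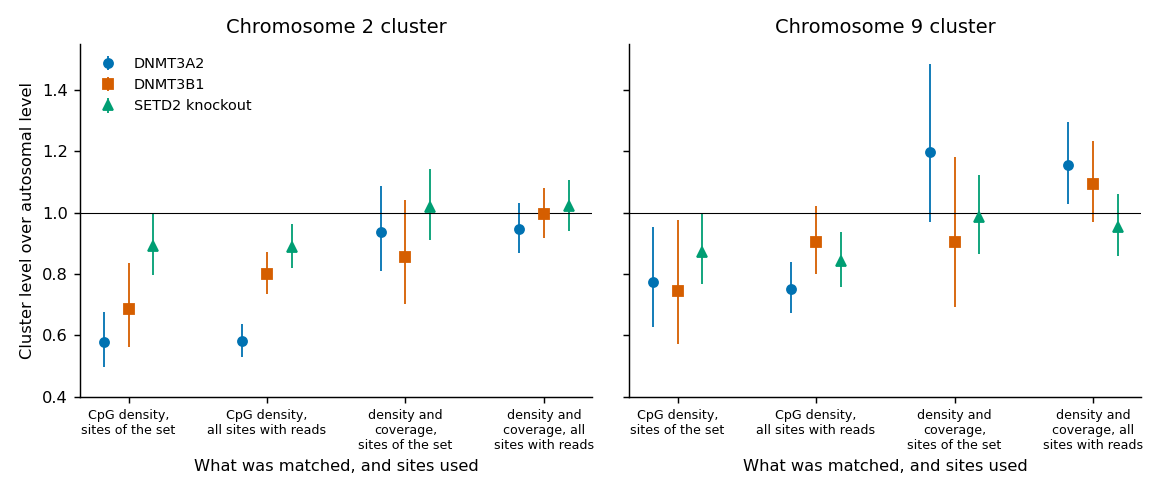
Cluster level divided by the autosomal level (y axis, ratio) under 2 ways of matching (CpG density alone, or density and regional coverage) and for the sites of the set or all sites with reads, one panel per cluster. Points are lines (circles DNMT3A2, squares DNMT3B1, triangles SETD2 knockout) and bars 95% intervals from 10 kb tiles. With density alone every point lies under 1 (0.578 to 0.904), and with coverage also matched the points lie between 0.854 and 1.20.

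Other autosomal DNA of the same coverage was also under the density-matched level in most windows. Among all autosomal windows of 500 kb with at least 100 set sites and a mean coverage from 4 to under 5 reads (572 windows), the median level over the density-matched autosomes was 0.568 for DNMT3A2, 0.771 for DNMT3B1 and 0.845 for the knockout. In windows under 4 reads (394) the medians were 0.527, 0.719 and 0.852, and in windows from 8 to under 10 (1205) they were 1.04, 1.02 and 1.02. The 12 cluster windows, with coverage from 2.91 to 5.16, had medians of 0.575, 0.692 and 0.890. Their spread was wide, from 0.186 to 1.11 for DNMT3A2, 0.462 to 1.11 for DNMT3B1 and 0.581 to 1.12 for the knockout. Among all 620 autosomal windows of 4 Mb, 11 had a lower coverage than the chromosome 2 cluster. A lower ratio to the autosomes was found in 23 of the 620 (3.71%) for DNMT3A2, in 9 (1.45%) for DNMT3B1 and in 84 (13.5%) for the knockout. The knockout over DNMT3B1 was lower in 616 of the 620, so the cluster was near the top of that range, which was not matched on coverage. In autosomal 500 kb windows this ratio was also higher where coverage was low. Its medians were 1.15 under 4 reads, 1.12 from 4 to under 5 and 1.01 from 8 to under 10. For the chromosome 9 cluster, 71 of 1185 windows of 2 Mb had a lower coverage, and 251 (21.2%), 84 (7.09%) and 187 (15.8%) had a lower ratio for DNMT3A2, DNMT3B1 and the knockout. The knockout over DNMT3B1 was lower in 1101 of those windows (92.9%).

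**Figure D2:**
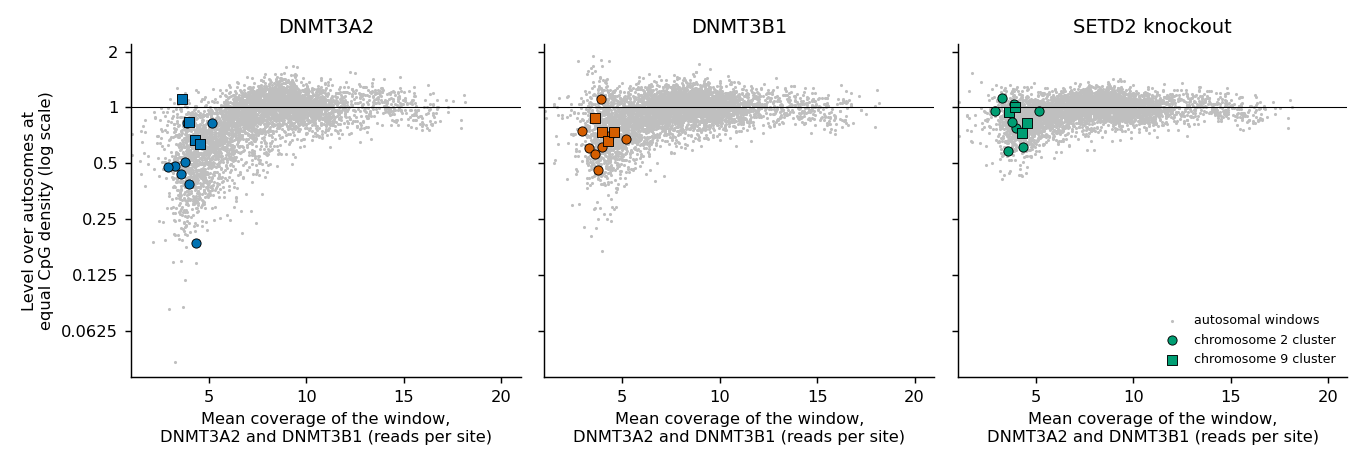
Methylation level of 500 kb windows over the autosomal level at equal CpG density (y axis, log scale) against mean coverage of the window (x axis, reads per site), one panel per line. Grey points are the other autosomal windows, circles the 8 windows of the chromosome 2 cluster and squares the 4 of the chromosome 9 cluster. The cluster windows lie at 2.91 to 5.16 reads per site, where the median of the grey points is under 1 in each panel, though the grey points reach above 1 as well.

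The deficit, with coverage not matched, was not equal over CpG density. At 1 to 4 CpGs per kb, the DNMT3A2 level of the chromosome 2 cluster was 2.86% (109 of 3810 reads, exact interval 2.36 to 3.44) and the autosomal level 5.62%. The chromosome 9 cluster had 5.45% there (174 of 3194, 4.69 to 6.29), so the clusters differed in this bin by more than counting error. At 5 to 9 CpGs per kb, which held 44.8% of the set, the DNMT3A2 levels were 4.45% and 5.12% on chromosomes 2 and 9 and 7.95% on the autosomes. The DNMT3B1 levels in that bin were 2.33% and 2.23% in the clusters and 3.26% on the autosomes. The knockout levels were 6.33% and 5.67% in the clusters and 7.09% on the autosomes. In the DNMT3A2 line, autosomal levels rose from 5.62% at 1 to 4 CpGs per kb to 9.17% at 10 to 19, and those of the chromosome 2 cluster from 2.86% to 5.95%, while the chromosome 9 cluster changed from 5.45% to 5.96%. At 20 to 39 CpGs per kb, where both clusters together had 86 sites, every exact interval of a cluster held the autosomal level. These autosomal levels come mostly from better covered DNA. The regional coverage class of 4 to under 5 reads held most cluster sites (40.6%). There the DNMT3A2 level at 1 to 4 CpGs per kb was 3.82% in both clusters together and 3.33% on the autosomes. At 5 to 9 CpGs per kb it was 4.06% and 4.59%.

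**Figure D3:**
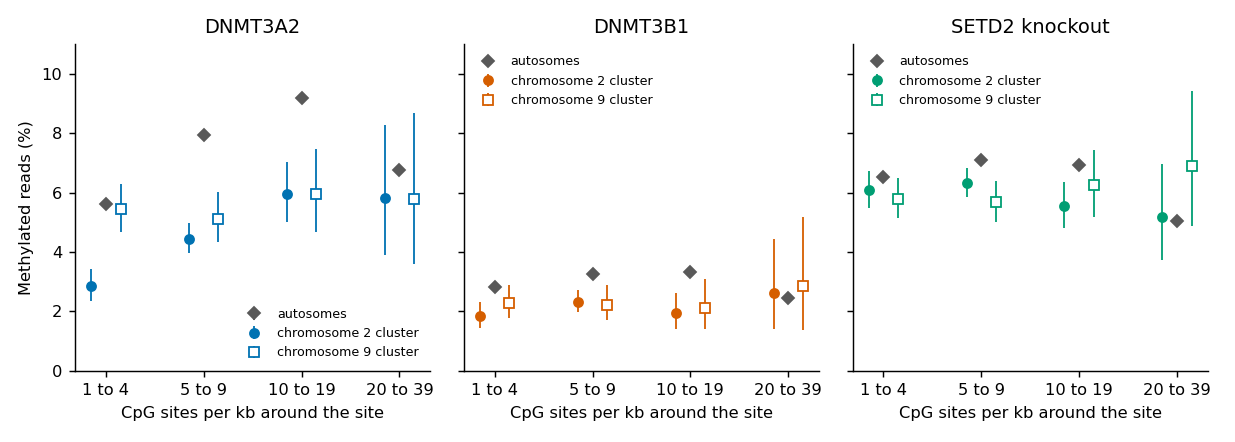
Methylated reads (y axis, percent) by the number of CpG sites per kb around a site (x axis), one panel per line. Diamonds are autosomes without the clusters, filled circles the chromosome 2 cluster and open squares the chromosome 9 cluster, with exact 95% intervals. In the DNMT3A2 panel the autosomal level at 5 to 9 CpGs per kb is 7.95% and the clusters lie at 4.45% and 5.12%. Autosomal levels are not matched on coverage.

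Against the 2 Mb on each side, at equal density, the clusters were again lower in the DNMT3A2 line. The chromosome 2 cluster stood at 0.618 of its flanks (0.520 to 0.734) for DNMT3A2, 0.682 (0.549 to 0.847) for DNMT3B1 and 0.924 (0.813 to 1.05) for the knockout. The chromosome 9 cluster stood at 0.759 (0.608 to 0.948), 0.847 (0.634 to 1.13) and 0.871 (0.751 to 1.01). Against flanks that began 1 Mb away, the chromosome 9 ratio for DNMT3B1 was 0.678 (0.507 to 0.907) and excluded 1. For the other ratios, whether the interval included 1 did not change with those flanks. The flanks were better covered, with means of 7.84 and 7.47 reads around the chromosome 2 cluster and 8.17 and 7.71 around the chromosome 9 cluster (DNMT3A2, DNMT3B1). Low DNMT3A2 levels also occurred in the flanks. The flanking window chr2:85000001-85500000, with a coverage of 5.79 reads, above every cluster window, had a DNMT3A2 ratio of 0.328 to the autosomes. That is under the 5th percentile (0.389) of the autosomal windows with 5 to under 6 reads. This window adjoins the cluster and held 5.06 CpG sites per kb, close to the 4.63 of the cluster. Whether olfactory receptor genes reach into the flanks was not checked, since mm9 gene models were not used. The window chr9:35800001-36300000, with a coverage of 3.58 reads, had 0.284.

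**Figure D4:**
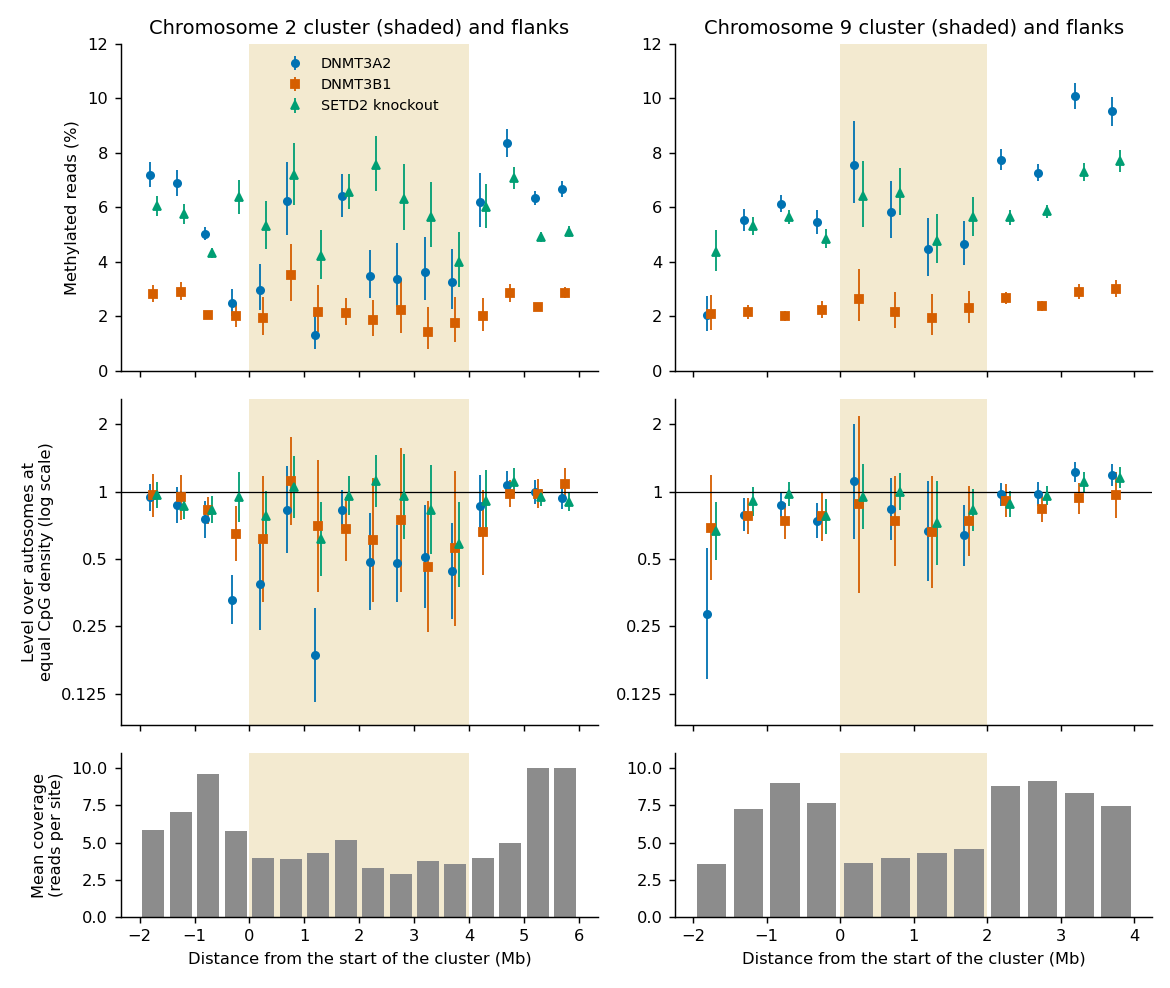
Methylated reads (top, percent), the ratio to autosomes at equal CpG density (middle, log scale) and mean coverage (bottom, reads per site) in 500 kb windows by distance from the cluster start (Mb), with the clusters shaded. Circles are DNMT3A2, squares DNMT3B1 and triangles the SETD2 knockout, with exact 95% intervals (top) and intervals from 10 kb tiles (middle). Coverage is 2.91 to 5.16 inside the clusters, and the lowest DNMT3A2 ratio is 0.186.

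The ratio between lines, taken relative to autosomes of equal density, was higher in the chromosome 2 cluster for both knockout comparisons. The SETD2 knockout over DNMT3B1 was 2.85 in levels there and 2.19 on the autosomes, which is 0.38 higher on the log2 scale (0.08 to 0.68). The knockout over DNMT3A2 was 0.62 higher (0.38 to 0.87). Such differences on the log2 scale are called relative log2 ratios. DNMT3B1 over DNMT3A2 was 0.496 in levels and 0.418 on the autosomes, and the interval of its relative log2 ratio, 0.25 (-0.10 to 0.59), included 0. In the chromosome 9 cluster the relative log2 ratios were -0.05 (-0.45 to 0.35) for DNMT3B1 over DNMT3A2, 0.23 (-0.18 to 0.64) for the knockout over DNMT3B1 and 0.18 (-0.17 to 0.52) for the knockout over DNMT3A2. None of these excluded 0. With coverage also matched, the knockout over DNMT3A2 on chromosome 2 dropped to 0.12 (-0.12 to 0.36). The knockout over DNMT3B1 changed less, to 0.26, although its interval then included 0 (-0.05 to 0.56). On chromosome 9, DNMT3B1 over DNMT3A2 then became -0.41, with an interval whose upper bound lay just under 0 (-0.81 to -0.00077), and over all of each line's own sites it was -0.08 (-0.28 to 0.12). The knockout over DNMT3A2 on chromosome 9 was -0.28 (-0.48 to -0.07) over own sites with coverage matched.

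Sites outside the set, which the rule did not use, gave the same order of levels but not the same ratios between lines. These are a line's remaining sites with at least 1 read and no more than its maximum, and a read can cover sites of both kinds. In the chromosome 2 cluster the DNMT3A2 level there was 3.78% (2299 of 60775 reads), at 0.599 of the density-matched autosomes (0.546 to 0.657). The DNMT3B1 level was 2.42% (1353 of 55876), at 0.840 (0.766 to 0.920), and the knockout level 5.87% (1391 of 23687), at 0.893 (0.804 to 0.991). The chromosome 9 cluster had 4.81% (1546 of 32146), 2.75% (801 of 29104) and 5.41% (628 of 11606), at 0.765, 0.958 and 0.819 of the autosomes. DNMT3B1 over DNMT3A2, as a relative log2 ratio, was now 0.49 on chromosome 2 (0.32 to 0.65) and 0.32 on chromosome 9 (0.10 to 0.55). The knockout over DNMT3B1 had 0.09 (-0.11 to 0.29) and -0.23 (-0.49 to 0.04). The chromosome 2 interval of the knockout over DNMT3B1 thus included 0 here, and it overlapped that of the set. Outside sites differ between lines, with 1660 in the knockout and 10866 in the DNMT3B1 line on chromosome 2. Their ratios therefore do not repeat those at shared sites. With coverage also matched at the outside sites, DNMT3B1 over DNMT3A2 was 0.12 on chromosome 2 (-0.05 to 0.28) and -0.0055 on chromosome 9 (-0.23 to 0.22). Both of these intervals included 0. The knockout over DNMT3B1 was then -0.01 on chromosome 2 (-0.21 to 0.19) and -0.31 on chromosome 9 (-0.57 to -0.05), and the knockout over DNMT3A2 was 0.10 (-0.08 to 0.28) and -0.31 (-0.59 to -0.04).

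Within the clusters, 500 kb windows showed where the DNMT3A2 line was lowest. A DNMT3A2 level at least 1.5-fold under the density-matched autosomes was found in 7 of 12 cluster windows and in 22.6% of 4677 autosomal windows. The same was found for DNMT3B1 in 5 of 12 (10.2% of autosomal windows) and for the knockout in 2 of 12 (2.97%). DNMT3B1 over DNMT3A2 was at least 1.5-fold higher in 3 of 12 (12.3%), the knockout over DNMT3B1 in 2 of 12 (5.11%) and the knockout over DNMT3A2 in 5 of 12 (15.8%). With coverage matched as well, 2 of 12 were past the fold for DNMT3A2 lower (10.3% of autosomal windows), 1 for DNMT3B1 lower (5.47%) and 0 for the knockout lower (1.22%). For the ratios, 1 was past it for DNMT3B1 over DNMT3A2 (6.2%), 2 for the knockout over DNMT3B1 (3.42%) and 2 for the knockout over DNMT3A2 (7.42%), all higher. In the other direction, 1 was past it for DNMT3A2 higher (0.855%), 2 for DNMT3B1 over DNMT3A2 lower (2.59%) and 1 for the knockout over DNMT3A2 lower (0.812%).

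The lowest DNMT3A2 window was chr2:86500001-87000000, with 1.33% methylated reads (18 of 1356, exact interval 0.789 to 2.09) and 0.186 of the autosomal level (0.115 to 0.302). The DNMT3B1 level there was 2.17% (27 of 1247), next to 2.13% over the whole cluster, and the knockout had 4.20% (86 of 2046). DNMT3B1 over DNMT3A2 was 1.92 there on the relative log2 scale (1.00 to 2.84). The coverage of this window was 4.32 reads, and its values here were not matched on coverage. With coverage also matched, the lowest DNMT3A2 ratio of the 12 cluster windows was 0.313, against 0.186 without. The highest DNMT3B1 over DNMT3A2 was 2.82, against 3.78 without. Sites of chr2:86500001-87000000 outside the set gave 1.97% (149 of 7549) for DNMT3A2, 2.28% (151 of 6632) for DNMT3B1 and a log2 ratio of 1.32 (0.76 to 1.88), so the low DNMT3A2 level of this window was also present in sites that the rule left out. The window that held most set sites, chr2:87000001-87500000 (358 sites, coverage 5.16), had 6.41% (DNMT3A2), 2.14% (DNMT3B1) and 6.55% (knockout). Without it the chromosome 2 ratio of DNMT3A2 to autosomes was 0.471 (0.385 to 0.577). DNMT3B1 over DNMT3A2 was then 0.55 (0.12 to 0.97) and excluded 0, while the knockout over DNMT3B1, 0.33 (-0.05 to 0.71), no longer did. Leaving out chr2:87500001-88000000 also brought the interval of the latter across 0 (0.29, -0.03 to 0.61). On chromosome 9, the window at the start of the cluster, chr9:37800001-38300000, had the highest DNMT3A2 level of the 12 at 7.56% (93 of 1230), beside 2.65% for DNMT3B1 and 6.42% for the knockout. The DNMT3A2 interval of the chromosome 9 cluster included 1 without chr9:38800001-39300000 (0.797, 0.631 to 1.01) or without chr9:39300001-39800000 (0.852, 0.652 to 1.11). No value with a window left out was matched on coverage.

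Finer windows were possible for the DNMT3A2 and DNMT3B1 lines when all sites with reads in both were used, since only 1 of the 60 cluster windows of 100 kb had 100 sites of the set. In that window, chr2:87300001-87400000, the levels were 9.08% (DNMT3A2), 1.73% (DNMT3B1) and 7.64% (knockout). It was thus past 1.5-fold for DNMT3B1 lower (9.14% of 15528 autosomal windows of this kind), DNMT3B1 over DNMT3A2 lower (5.34%) and knockout over DNMT3B1 higher (6.7%). It was not past it for DNMT3A2 lower (9.99%), knockout lower (2.52%), DNMT3B1 over DNMT3A2 higher (8.28%) or knockout over DNMT3A2 higher (7.18%). Across the 60 windows with 180 to 455 sites each, the DNMT3A2 level ranged from 0.648% to 10.0% with a median of 3.70%, and the DNMT3B1 level from 0.513% to 4.45% with a median of 2.32%. The levels of the lines rose together over these windows (Pearson r = 0.556, Spearman rho = 0.547, n = 60), which share sites, CpG density and regional coverage. Over all 23608 autosomal windows r was 0.672. DNMT3A2 was at least 1.5-fold under the autosomes in 37 windows (26.4% of all 23608 autosomal windows), DNMT3B1 in 15 (13.9%). DNMT3B1 over DNMT3A2 was at least 1.5-fold higher in 22 (15.9%) and lower in 3 (1.97%). In 9 of the 60 the DNMT3B1 level was above the DNMT3A2 level outright, against 3.93% of autosomal windows. None of these shares was matched on coverage, which was low in the clusters. Among the autosomal 500 kb windows from 4 to under 5 reads, the median of DNMT3B1 over DNMT3A2 was 1.35, and from 8 to under 10 reads it was 0.973.

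The highest ratios of DNMT3B1 over DNMT3A2 relative to autosomes lay on chromosome 2. In chr2:86600001-86700000 the DNMT3A2 line had 9 of 1388 reads methylated (0.648%) and the DNMT3B1 line 24 of 1317 (1.82%), a relative ratio of 6.39. The coverage of that window was 3.26 reads. Next were chr2:86700001-86800000 (1.77% and 2.46%, ratio 3.00) and chr2:89300001-89400000 (1.60% and 2.12%, ratio 2.96). The first and second of these lie in the 500 kb window with the lowest DNMT3A2 level. The lowest ratio was in chr9:38200001-38300000, with 112 of 1315 reads in the DNMT3A2 line (8.52%) and 22 of 1177 in the DNMT3B1 line (1.87%), a relative ratio of 0.485. In chr2:88800001-88900000 (1.87% and 0.513%, ratio 0.575) and chr2:88400001-88500000 (3.85% and 1.13%, ratio 0.650) both lines were under the autosomes. Over all autosomal windows of this kind the ratio ran from 0.09 to 18.7, with 5th and 95th percentiles of 0.733 and 2.09. None of these ratios was matched on coverage.

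Single sites were mostly without any methylated read. On chromosome 2, 79.7% of set sites had none in the DNMT3A2 line (exact interval 77.5 to 81.9), 90.1% in the DNMT3B1 line (88.3 to 91.6) and 68.3% in the knockout (65.7 to 70.8). Autosomal sites of equal density had 63.2%, 83.1% and 60.7%. On chromosome 9 the shares were 77.0%, 89.7% and 69.1%, and 64.6%, 83.5% and 61.3% on the autosomes. Those shares were not matched on depth, either between lines or between clusters and autosomes. Since the knockout was read more deeply, the shares were also taken for 10 reads drawn from each site that had them, and were then 77.6%, 89.4% and 72.7% on chromosome 2 and 75.3%, 89.5% and 73.7% on chromosome 9. Autosomal set sites, here not matched on density, had 65.0%, 85.1% and 70.9% for 10 drawn reads, so the knockout shares lay close together. Sites with at least 50% of reads methylated numbered 18, 8 and 15 of 1308 on chromosome 2 and 16, 5 and 10 of 748 on chromosome 9 (DNMT3A2, DNMT3B1, knockout). As shares these were 1.38%, 0.612% and 1.15% on chromosome 2, with 2.03%, 0.723% and 1.36% at autosomal sites of equal density. On chromosome 9 they were 2.14%, 0.668% and 1.34%, with 1.93%, 0.715% and 1.35% on the autosomes. Over both clusters, 68 sites (3.31%) reached 50% in 1 line, 2 sites (0.0973%) in 2 lines and none of 2056 in all 3. Of the 7045479 autosomal sites, 3.48% reached it in 1 line, 0.0879% in 2 lines and 101 sites in all 3.

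Few stretches held enough set sites to be described over 1 kb. Of the 20 windows of 1 kb with at least 5 set sites on chromosome 2, 4 had no methylated read with DNMT3A2, 11 with DNMT3B1 and 4 in the knockout. The share of such windows over the autosomes was not taken. These counts, and those for chromosome 9 below, therefore do not tell the clusters from other DNA. The window whose lowest level over the lines was highest, chr2:86166001-86167000, had 25.5% in the DNMT3A2 line (14 of 55 reads), 10.9% in the DNMT3B1 line (6 of 55) and 13.0% in the knockout (13 of 100). After it came chr2:87007001-87008000 with 15.6%, 7.50% and 8.24%, and chr2:85556001-85557000 with 4.41%, 13.0% and 7.56%. On chromosome 9, 11 such windows were found, 3 with no methylated read with DNMT3A2, 1 with DNMT3B1 and 0 in the knockout. The highest by the same measure was chr9:39727001-39728000, with 6.94% (5 of 72), 4.08% (2 of 49) and 21.4% (21 of 98). The windows chr9:39358001-39359000 (3.39%, 4.44% and 3.70%) and chr9:38589001-38590000 (3.03%, 8.96% and 7.22%) followed. Most of these levels rest on fewer than 10 methylated reads.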

How the data were processed

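For each CpG site the authors deposited 2 whole-number columns per line, the read count (coverage) and the count of reads called methylated, per the file headers. The deposited knockout table held a methylated fraction as well, which was not used. The deposited counts pool a line's 2 runs, since the headers name the line and not the run. Of the 2 knockout files, which held the same values, 1 was used. Positions are in mm9 according to the submitters' processing notes. Aligner, caller and duplicate handling: not given in the sources used here. Groups came from the sample titles. Regions, set rule and alternatives were chosen with earlier results of these data known.

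A level is the sum of methylated reads over a group of sites divided by the sum of all their reads. CpG density counted listed sites within 500 bp on each side, in bins of 1 to 4, 5 to 9, 10 to 19, 20 to 39, 40 to 59, and 60 or more. Autosomal and flanking levels were weighted to a cluster's reads per bin, and autosomes excluded both clusters. Intervals of ratios came from a linearised ratio estimator over 10 kb tiles, tested on simulated data. Regional coverage was the mean of the DNMT3A2 and DNMT3B1 lines over all listed sites of a 100 kb stretch, in 7 classes divided at 3, 4, 5, 6, 8 and 10 reads. Windows of 500 kb, and of 100 kb with both lines only, needed 100 sites and were added because the planned 100 kb windows were nearly empty. Named 100 kb windows are the 3 highest and 3 lowest for DNMT3B1 over DNMT3A2, and named 1 kb windows the 3 per cluster whose lowest level over the lines was highest. For the knockout over DNMT3B1 only 1 window of 100 kb qualified. The planned 200 kb windows gave no cluster window with 200 sites. Alternatives varied the coverage limits, the background, the density match, the bounds, the flanks, the windows and the folds. All steps ran in Python 3.11.15 with numpy 2.4.6 and scipy 1.17.1 for the estimates, pandas 2.3.3 for tables, and matplotlib 3.10.9 for figures.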

Additional observations from a re-analysis of the deposited data

Results flagged for a closer look

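A line's reads at sites above its coverage maximum entered comparisons only in the setting without a maximum. The few such sites in the clusters are listed where a line had more than 3 methylated reads there. Their levels were above those of CpG-dense autosomal DNA. The 1 such site on chromosome 2 had 9.38% methylated reads in the SETD2 knockout (9 of 96, exact 95% interval 4.38 to 17.1). The 2 sites on chromosome 9 had 8.33% in the DNMT3A2 line (9 of 108), 8.53% in the DNMT3B1 line (11 of 129) and 4.94% in the knockout (13 of 263). The 3 lines thus did not keep the order of the set there, and the intervals on chromosome 9 (3.88 to 15.2, 4.33 to 14.7 and 2.66 to 8.30) overlap. Whether reads of repeated copies meet at these positions was not tested.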

How the results depend on the processing

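Of 348 values recomputed under other settings, 5 reversed, counting only those whose reported interval excluded 1 (0 for a log2 ratio), all with regional coverage matched. The ratio to autosomes crossed 1 in the chromosome 2 knockout (1.02 with the set and 1.02 with own sites) and in chromosome 9 DNMT3A2 (1.20 and 1.16), and in chromosome 9 DNMT3B1 with own sites (1.09). On chromosome 2 the ratio moved to 0.938 and 0.947 (DNMT3A2) and to 0.854 and 0.995 (DNMT3B1). Relative log2 ratios moved on chromosome 2 to -0.14 for DNMT3B1 over DNMT3A2 (set), 0.036 for the knockout over DNMT3B1 (own sites) and 0.12 and 0.11 for the knockout over DNMT3A2, and on chromosome 9 to -0.20 for the knockout over DNMT3B1 (own sites) and -0.28 and -0.28 for the knockout over DNMT3A2. Relative log2 ratios whose reported interval included 0 changed sign in 8 cases, 4 with coverage matched (all printed above) and 4 without. The latter were chromosome 9 DNMT3B1 over DNMT3A2 with 10 reads (0.11), no maximum (0.03) and own sites (0.27, interval 0.07 to 0.47), and the knockout over DNMT3B1 with own sites (-0.10). The cause was not tested beyond that match. A ratio to autosomes that stayed under 1 did not count as reversed. Its interval could still come to include 1, as with density in 2 kb.

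Levels moved with a minimum of 10 reads to 4.68% (chromosome 2 DNMT3A2), 5.52% (chromosome 2 knockout) and 2.62% (chromosome 9 DNMT3B1), with own sites to 3.87% (chromosome 2 DNMT3A2) and 2.65% (chromosome 9 DNMT3B1), and with the background subtracted to 5.60% and 5.37% in the knockout on chromosomes 2 and 9. Ratios to flanks moved for chromosome 2 DNMT3A2 to 0.745 with flanks of 1 Mb and for the chromosome 2 knockout to 0.789 with 10 reads. With 10 reads, sites with no methylated read were 73.1% (chromosome 2 DNMT3A2) and 72.2%, 85.2% and 64.8% (chromosome 9), and sites with most reads methylated were 0 (DNMT3B1) and 0.340% (knockout) on chromosome 2. A threshold of 30% gave 4.89%, 2.52% and 5.89% on chromosome 2 and 6.42%, 2.27% and 6.42% on chromosome 9.

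Counts of 500 kb windows in the order DNMT3A2, DNMT3B1 and knockout lower, then DNMT3B1 over DNMT3A2, knockout over DNMT3B1 and knockout over DNMT3A2 higher, were 7, 5, 2, 3, 2 and 5. Coverage matching gave 2, 1, 0, 1, 2 and 2. The smaller fold tried moved the second to sixth counts to 10, 4, 5, 6 and 8, and a fold of 2 moved them to 1, 0, 1, 0 and 3. Density in 2 kb gave 1 for DNMT3B1 over DNMT3A2, and a minimum of 1 read gave 1 for the knockout over DNMT3B1. The planned 100 kb windows gave 0, 1, 0, 0, 1 and 0. With a minimum of 1 read, DNMT3A2 lower was 3, DNMT3B1 lower 0, DNMT3B1 over DNMT3A2 higher 1 and knockout over DNMT3A2 higher 2. Windows of 50 kb gave 2 for DNMT3B1 lower, 2 for knockout over DNMT3B1 and 1 for knockout over DNMT3A2, and a fold of 2 gave 0 for DNMT3B1 lower.

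No paired analysis was possible because each line is 1 pooled library and the run numbers only name the runs. Depth limits the clusters to 7.41% of their listed sites, and the knockout lists only sites with 10 or more reads.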
